A study of Mus musculus with 12 samples.

Results

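The 10 genes described here encode proteins that the liver secretes into plasma: the carriers transthyretin (Ttr), retinol-binding protein 4 (Rbp4), fetuin-A (Ahsg), fetuin-B (Fetub), vitamin D-binding protein (Gc), hemopexin (Hpx) and ceruloplasmin (Cp), the pentraxin serum amyloid P (Apcs), and 2 heavy chains of the inter-alpha-trypsin inhibitor family (Itih3 and Itih4). They were chosen by symbol from a table of 23849 symbols, and all 10 were found on a single line each. Liver RNA was measured by RNA-seq in 12 male mice of the C57BL/6J background, stated to be 8 weeks old, all of them on a high-fat diet (HFD). The HFD lasted 6 weeks, and for the last 2 weeks the mice received vehicle or Libramed, which is the labels' name for Policaptil Gel Retard, a blend of gel-forming fibers given once a day by gavage shortly before the lights went off. Vehicle was drinking water. Livers were taken at Zeitgeber time (ZT) 0, when the lights go on and the active phase of the mouse ends, or at ZT12, when they go off. This gives 4 groups of 3 mice: vehicle ZT0, Libramed ZT0, vehicle ZT12 and Libramed ZT12. None of the groups had a normal diet, so every value below is a value on HFD.

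Plasma proteins of hepatocyte origin are classed by how they respond to inflammation. Interleukin-6 and interleukin-1 act on hepatocytes through STAT3, C/EBP factors and NF-kB, and raise the positive acute-phase proteins, while output of the negative ones declines. Among the genes here Hpx, Cp, Apcs, Itih3 and Itih4 were placed in the positive class and Ttr, Rbp4 and Ahsg in the negative class, from textbook knowledge. Gc and Fetub were given no class. In the mouse, Apcs is a main acute-phase pentraxin.

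Values are FPKM, fragments scaled to transcript length and to the mapped reads of the library, so levels can be compared between genes. The FPKM of a library summed to between 634683 and 759355, the relative depth estimated from the value of a single read differed by at most 1.79 times between libraries, and the 10 highest genes held 23.9% to 28.7% of the sum. Albumin was listed at 0 in all 12 libraries, which can be a failed estimate, and was not used. The table gives no counts, so intervals for counting error cannot be given. Hepatocyte markers were abundant (7 of 7 tested, summed FPKM of 24900 to 37890), whereas markers of pancreas and choroid plexus, which also make Ttr, summed to at most 0.12 FPKM, with Ins2, Gcg and Prss1 at 0 in every library. In whole liver, fewer cells of a type and less RNA per cell cannot be told apart.

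The members covered a wide range of levels. Over the 12 mice the mean was 7846 FPKM for Ttr, 6509 for Rbp4, 6503 for Ahsg, 5807 for Hpx and 4356 for Gc, which put all of them among the 19 highest of the 23849 symbols. Then came Itih4 at 927 FPKM, Fetub at 529, Itih3 at 484, Cp at 219 and Apcs at 182. In this order the ranges over the mice overlapped between neighbours except at the steps from Gc to Itih4 and from Itih3 to Cp. The 10 genes together made up 4.52% to 5.24% of the FPKM sum of a library. How much a gene differed among mice did not follow its level: the highest mouse had 6.18 times the FPKM of the lowest for Apcs, 2.97 times for Itih4 and 2.42 times for Hpx, but 1.27 times for Gc.

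**Figure D1:**
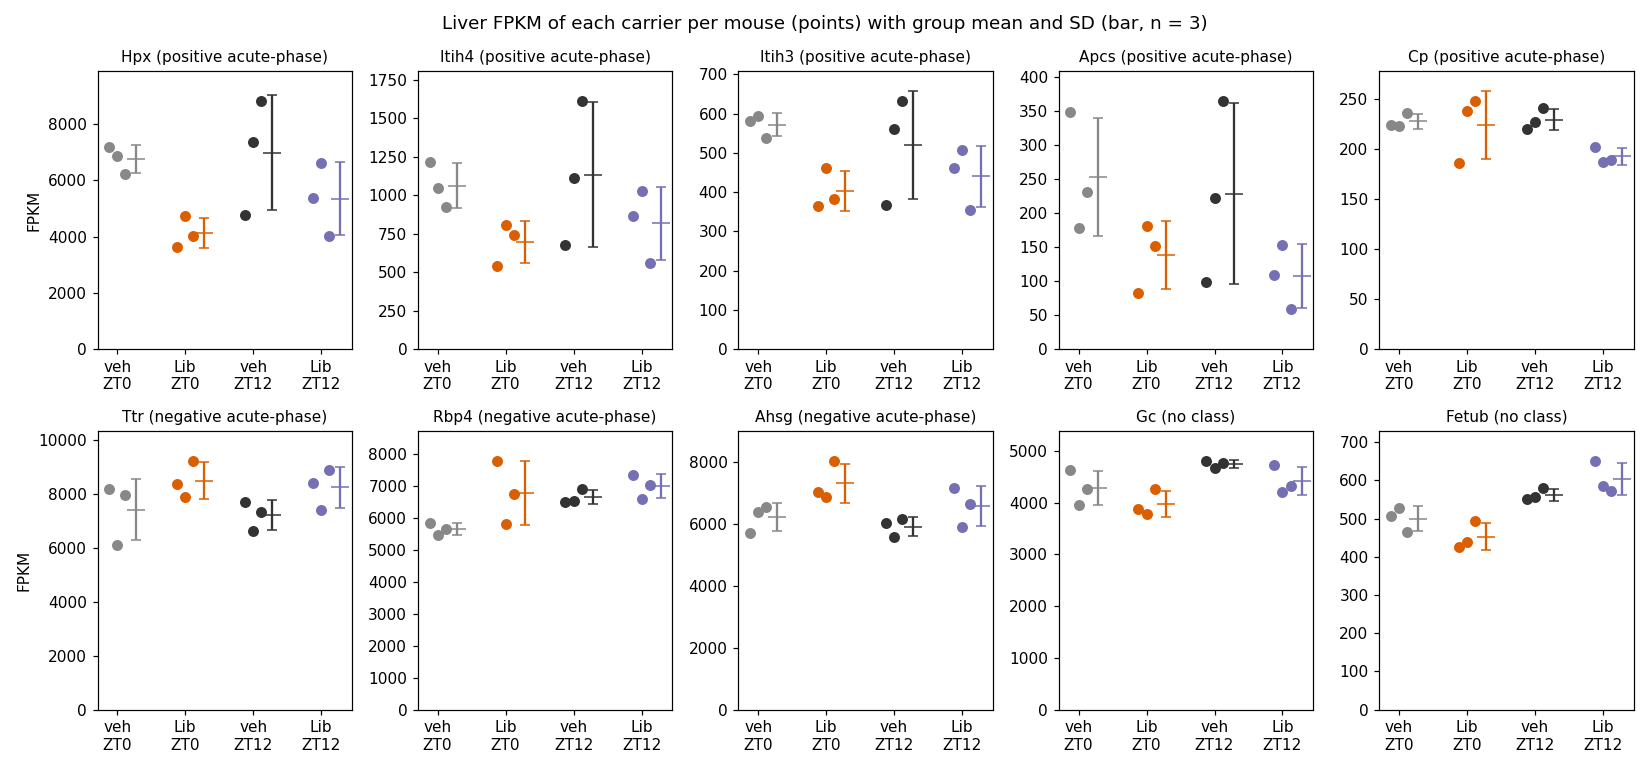
FPKM (vertical axis, from 0) of each of the 10 genes in each of the 12 mice, with the 4 groups on the horizontal axis (veh, vehicle; Lib, Libramed), points for mice and the group mean with its SD (n = 3) at the right of each group. Hpx, Itih4 and Itih3 at ZT0 do not overlap between vehicle and Libramed, and vehicle ZT12 has the widest spread for Hpx, Itih4, Itih3 and Apcs.

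At ZT0, 4 of the 5 positive acute-phase genes were lower with Libramed at an unadjusted p under 0.05, and the 3 negative ones had higher means without passing that threshold. The lower genes were Hpx, Itih3, Itih4 and Apcs, with group means 0.549 to 0.704 times those of vehicle. Among all 9806 genes tested with limma, 9.23% had a p under 0.05 in this comparison, 3.42% in the higher and 5.81% in the lower direction. No gene of the table passed Benjamini-Hochberg adjustment with limma here (0%), against 905 at an unadjusted p under 0.05. The smallest adjusted p among the members was 0.295. Groups did not overlap for 4 of the 10 members (Hpx, Itih3, Itih4 and Ahsg), compared with 15.1% of all genes tested.

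Hemopexin binds free heme and delivers it to the liver, which limits heme-driven oxidation. Its gene lies on the minus strand of chromosome 7, from 105591613 to 105600137 (mm10, GENCODE vM21, 10 exons). In the vehicle ZT0 mice Hpx stood at 7202, 6853 and 6228 FPKM, and in the Libramed ZT0 mice at 3653, 4730 and 4028 FPKM. All 3 treated mice were below all 3 vehicle mice, and the mean went from 6761 ± 494 to 4137 ± 547 FPKM (SD, n = 3). The limma log2 fold change on log2(FPKM + 1) was −0.71 (SE 0.138, adjusted p = 0.295), and in each of the 14 alternative analyses it kept its sign and an unadjusted p under 0.05. An exact two-sided permutation test gave p = 0.1, the smallest that 3 mice against 3 allow.

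Itih3 and Itih4 encode heavy chains of the inter-alpha-trypsin inhibitor family. Heavy chains of the family can be linked to hyaluronan and stabilize the extracellular matrix, and Itih4, which lacks the site for that linkage, circulates on its own and is cleaved by plasma kallikrein. The genes are neighbours on chromosome 14, Itih4 on the plus strand from 30886476 to 30902353 (23 exons) and Itih3 on the minus strand from 30908572 to 30923760 (22 exons), with 6218 bp between their annotated ends. Itih4 was at 1215, 1048 and 922 FPKM in vehicle ZT0 and at 543, 806 and 742 FPKM in Libramed ZT0, and the groups did not overlap (log2 fold change −0.62, SE 0.179, adjusted p = 0.469 in limma). Itih3 was at 582, 595 and 539 FPKM in vehicle ZT0 and at 365, 460 and 382 FPKM in Libramed ZT0, again with no overlap (log2 fold change −0.51, SE 0.119, adjusted p = 0.336 in limma). The exact permutation p was 0.1 for both genes. With the spread estimated over all 12 mice, Itih4 no longer passed the unadjusted threshold at ZT0, at the same fold change.

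Serum amyloid P is a pentraxin that binds bacterial surfaces, chromatin and amyloid fibrils. Its gene Apcs (chromosome 1, minus strand, 172893961 to 172895041, 2 exons) was the most variable member. It stood at 348, 178 and 231 FPKM in the vehicle ZT0 mice and at 83.4, 181 and 152 FPKM in the Libramed ZT0 mice. The highest treated mouse was just above the lowest vehicle mouse, so the groups overlapped (log2 fold change −0.88, SE 0.336, adjusted p = 0.526 in limma). The exact permutation p was 0.2. The unadjusted call was lost without vehicle ZT0 replicate 1 (log2 fold change −0.62), without vehicle ZT0 replicate 3 (−0.91) or without Libramed ZT0 replicate 1 (−0.55), and also with no minimum FPKM, with a replicate block or with the spread estimated over 12 mice.

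The start regions of these 4 genes are shown because the genes were lower together at ZT0 and varied together from mouse to mouse. Each run covers 250 bases before and 50 after the start in RefSeq (GRCm38.p6), is written 5′ to 3′ on the gene's strand, and has motif matches in capitals.
Hpx (chr7:105600067-105600366, minus strand): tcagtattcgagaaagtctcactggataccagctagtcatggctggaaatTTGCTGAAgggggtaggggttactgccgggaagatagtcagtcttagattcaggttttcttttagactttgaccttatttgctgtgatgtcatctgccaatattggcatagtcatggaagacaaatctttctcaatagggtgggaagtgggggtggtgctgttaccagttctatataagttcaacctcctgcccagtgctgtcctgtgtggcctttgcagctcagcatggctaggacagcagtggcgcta
Itih4 (chr14:30886226-30886525, plus strand): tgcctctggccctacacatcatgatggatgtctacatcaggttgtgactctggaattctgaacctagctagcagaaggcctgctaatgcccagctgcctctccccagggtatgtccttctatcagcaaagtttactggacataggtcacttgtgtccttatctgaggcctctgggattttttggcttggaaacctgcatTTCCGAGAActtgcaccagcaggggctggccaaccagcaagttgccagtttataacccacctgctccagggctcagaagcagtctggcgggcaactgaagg
Itih3 (chr14:30923538-30923837, minus strand): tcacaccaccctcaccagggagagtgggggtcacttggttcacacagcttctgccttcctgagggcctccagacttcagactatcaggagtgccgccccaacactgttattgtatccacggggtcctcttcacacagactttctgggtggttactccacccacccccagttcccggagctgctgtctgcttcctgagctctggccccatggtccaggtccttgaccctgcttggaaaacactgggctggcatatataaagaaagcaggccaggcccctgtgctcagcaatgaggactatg
Apcs (chr1:172895005-172895304, minus strand): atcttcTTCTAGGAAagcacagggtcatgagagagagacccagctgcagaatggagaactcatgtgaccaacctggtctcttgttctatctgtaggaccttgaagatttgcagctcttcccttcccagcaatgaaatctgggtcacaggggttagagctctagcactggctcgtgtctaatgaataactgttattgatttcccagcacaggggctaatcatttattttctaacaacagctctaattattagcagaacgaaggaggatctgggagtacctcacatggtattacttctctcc
The capitals in Itih4 and Apcs match the letters TTCNNNGAA, a STAT-type pattern, and those in Hpx match TTGCNNAA, a C/EBP-type pattern. Itih3 held no match to the 8 patterns searched on both strands.

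Windows of the same length were available for 9 of the 10 members, 12 windows in all because Cp, Fetub and Rbp4 each have more than 1 start, and Ttr had no entry. The STAT pattern was in the windows of 2 members and in 8.3% of all 32851 windows, and the C/EBP pattern was in the windows of 4 members (Hpx, Cp, Ahsg and Rbp4) and in 10.8% of all. A pattern of the PAR bZIP factors, TTATGNAA, was found in a window of Fetub and one of Rbp4, where it overlapped the C/EBP match, and in 3.38% of all windows. No member had NF-kB (GGGNNTTCC, 5.82% of all windows), E-box (CACGTG, 7.15%), glucocorticoid receptor (ACANNNTGT, 6.85%) or HNF4 (TGGACTTTG, 0.475%) letters, nor the HNF1 consensus (0.00913%). These matches describe letters in a window and say nothing of binding.

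At ZT12 the vehicle mice differed widely among themselves in the same genes. Hpx was at 4777, 7350 and 8837 FPKM in vehicle ZT12 and at 5376, 6621 and 4028 FPKM in Libramed ZT12. For Itih4 the values were 678, 1111 and 1614 FPKM against 863, 1028 and 561 FPKM, and for Apcs 99.3, 222 and 365 FPKM against 109, 153 and 59.1 FPKM. Replicate 1 of vehicle ZT12 lay below every other vehicle mouse of either time for these 3 genes and for Itih3, and the groups overlapped for all 4.

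The means of the 5 positive acute-phase genes were lower with Libramed at ZT12, from 0.468 times that of vehicle for Apcs to 0.848 times for Itih3, and Cp was the member that passed an unadjusted p under 0.05, in the lower direction. In this comparison 6.74% of all genes tested had such a p, 3.67% in the lower direction. None passed adjustment in limma (0%), against 661 at an unadjusted p under 0.05. The limma log2 fold changes were −1.0 for Apcs (SE 0.516, adjusted p = 0.729), −0.43 for Itih4 (SE 0.345, adjusted p = 0.782), −0.37 for Hpx (SE 0.267, adjusted p = 0.766) and −0.22 for Itih3 (SE 0.224, adjusted p = 0.849). Without vehicle ZT12 replicate 1, all 5 positive genes passed the unadjusted threshold in the lower direction, with log2 fold changes of −1.5 for Apcs, −0.76 for Itih4, −0.62 for Hpx and −0.45 for Itih3. Leaving out Libramed ZT12 replicate 1 or 2 also moved these 4 further down, with no unadjusted call. Without Libramed ZT12 replicate 2 they were −1.31 for Apcs, −0.62 for Itih4, −0.54 for Hpx and −0.32 for Itih3. Leaving out vehicle ZT12 replicate 2 or 3 or Libramed ZT12 replicate 3 made the 4 changes smaller, with no unadjusted call. Without vehicle ZT12 replicate 3 they were −0.57 for Apcs, −0.13 for Itih4, −0.18 for Hpx and −0.0558 for Itih3, and without Libramed ZT12 replicate 3 they were −0.63 for Apcs, −0.18 for Itih4, −0.18 for Hpx and −0.0686 for Itih3. Without vehicle ZT12 replicate 2 they were −0.93 for Apcs, −0.40 for Itih4, −0.31 for Hpx and −0.14 for Itih3.

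Ceruloplasmin carries copper and oxidizes ferrous iron so that transferrin can bind it. The Cp gene (chromosome 3, plus strand, 19957054 to 20009145, 19 exons) overlaps Hps3 on the opposite strand. The library protocol was stranded, but whether reads were counted by strand was not stated, so the values of Cp are less certain. At ZT0 Cp was at 224, 223 and 237 FPKM with vehicle and at 186, 238 and 249 FPKM with Libramed, which overlap. At ZT12 it was at 220, 228 and 241 FPKM with vehicle and at 203, 187 and 190 FPKM with Libramed. The ZT12 groups did not overlap, as in 13.1% of all genes tested, and Cp was the only member with this property at ZT12 (log2 fold change −0.25, SE 0.0704, adjusted p = 0.729 in limma). The exact permutation p was 0.1. With a Cyber-T variance estimate in place of limma, Cp was not called at ZT12 and Apcs was. At ZT0 the log2 fold change of Cp was −0.03 (SE 0.129).

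**Figure D2:**
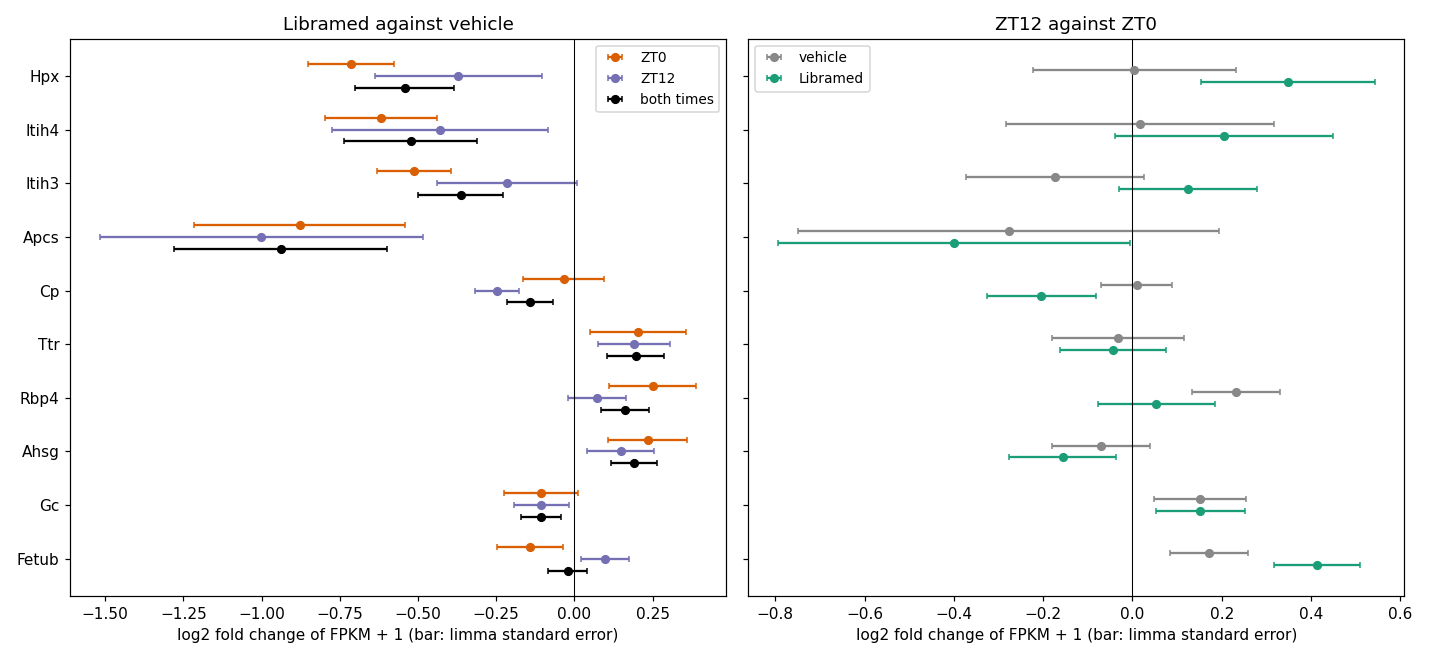
Log2 fold change of FPKM + 1 (horizontal axis) for each gene (vertical axis), with the limma standard error as a bar, for Libramed against vehicle at ZT0, at ZT12 and over both times (left) and for ZT12 against ZT0 with vehicle and with Libramed (right). Hpx, Itih4, Itih3 and Apcs lie to the left of 0 at both times in the left panel, from −1.0 to −0.22, and Ttr, Rbp4 and Ahsg lie to the right of it, from 0.07 to 0.25.

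With the 12 mice fitted together and time as a term, 5 members had an unadjusted p under 0.05 for treatment, 4 in the lower direction and 1 in the higher. The share among all genes tested was 10.5%, with 6.42% lower and 4.03% higher. No gene passed adjustment in limma (0%), against 1025 at an unadjusted p under 0.05. The lower genes were Hpx (log2 fold change −0.54, adjusted p = 0.339), Apcs (−0.94, adjusted p = 0.395), Itih3 (−0.36, adjusted p = 0.401) and Itih4 (−0.52, adjusted p = 0.441) in limma, and in each of them 6 of 6 treated mice were below the vehicle mean of their time. An exact permutation test within times, which cannot go below 0.005, gave p = 0.025, 0.05, 0.045 and 0.06 in that order. The median over the 5 positive genes was −0.52 and that over the 3 negative ones 0.19, where the median of all genes was −0.02. Without Libramed ZT12 replicate 3 the members called were Hpx and Apcs, without vehicle ZT12 replicate 2 they were Hpx, Apcs and Itih3, and without vehicle ZT12 replicate 3 they were Hpx, Apcs and Ahsg. The call of Itih4 was also lost without vehicle ZT0 replicate 1 (−0.47) or Libramed ZT0 replicate 1 (−0.44), so it failed when any of 5 of the 12 mice was left out.

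Hpx, Itih4, Itih3 and Apcs moved together from mouse to mouse. Pearson's r on log2(FPKM + 1) over the 12 mice was 0.821 to 0.96 for their 6 pairs, and 0.879 to 0.983 after the group means were removed. Each pair of values comes from the same library and shares its depth. The same mouse was lowest in all 4 genes in 3 of the groups (Libramed ZT0 replicate 1, vehicle ZT12 replicate 1 and Libramed ZT12 replicate 3), and the same mouse was highest in these groups too. Averaged over the 4 genes, the level relative to the gene's mean over the 12 mice ran from −0.74 in Libramed ZT12 replicate 3 to 0.78 in vehicle ZT12 replicate 3 on the log2 scale. Cp followed them less closely, with r of 0.337 to 0.676 over the 12 mice.

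**Figure D3:**
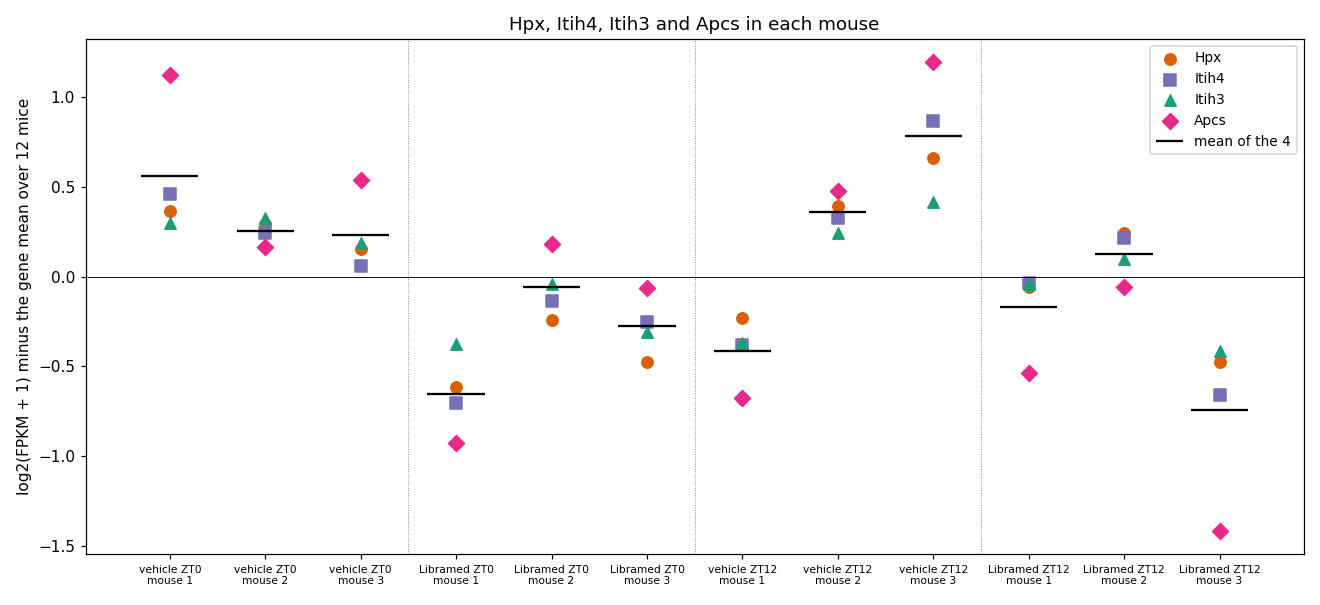
Level of Hpx, Itih4, Itih3 and Apcs in each of the 12 mice as log2(FPKM + 1) minus the gene's mean over all mice (vertical axis), with the mean of the 4 genes as a line. The 3 vehicle ZT0 mice lie between 0.23 and 0.56 by that mean and the 3 Libramed ZT0 mice between −0.66 and −0.06, while vehicle ZT12 spans −0.42 to 0.78.

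The genes whose pattern over the 12 mice was most like that of Hpx among all genes tested were Lcn2 (r = 0.974), Fgl1 (r = 0.966) and Itih4 (r = 0.96). Lcn2, which encodes the iron-siderophore binder lipocalin-2, was also first for Itih3 (r = 0.96), ahead of Hpx and Itih4. Itih4 was closest to Hpx, Itih3 and Fgl1 (r = 0.935). For Apcs the order was Lpp (r = 0.908), Itih4 (r = 0.902) and Vtn (r = 0.886). Cp had other neighbours, Ceacam1 at r = 0.851 being the nearest. The highest r of the remaining members was 0.96 for Gc (Nudt14), 0.944 for Fetub (2410016O06Rik) and 0.943 for Ttr (Mtch2). For Ahsg it was 0.918 (2310036O22Rik) and for Rbp4 0.903 (Lactb). An r of this size was therefore not particular to the positive acute-phase genes.

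Of 10 acute-phase reference genes outside the members (serum amyloid A genes, orosomucoids, lipocalin-2 and fibrinogen chains), 9 had a p under 0.05 in the lower direction at ZT0 and 3 at ZT12, with medians of −0.92 and −0.38. Among all genes tested, 5.81% were lower at ZT0 and 3.67% at ZT12 by this threshold. The lists were chosen with earlier results of these data known, so these counts are not independent support. At ZT0 the log2 fold change was −4.51 for Saa1, −3.59 for Lcn2 and −2.0 for Orm2. The 3 called at ZT12 were the fibrinogen chains Fga, Fgb and Fgg. No serum amyloid A, orosomucoid or lipocalin gene was called there. The ZT12 values were −0.45 for Saa1 (SE 1.03), −1.34 for Lcn2 (SE 0.998) and −1.11 for Orm2 (SE 0.867), and Saa4 was higher (0.09). Of 10 regulators of secreted proteins in hepatocytes, Stat3 (−0.44, adjusted p = 0.477 in limma) and Cebpb (−0.48, adjusted p = 0.436) were lower at ZT0 at an unadjusted p under 0.05 and none was called at ZT12. Kupffer cell markers were lower in sum with Libramed at ZT0 (14.7 to 26.6 FPKM against 26.2 to 33.0 FPKM with vehicle), where 2 of 4 tested had p under 0.05 and all 4 were lower. At ZT12 their sum spanned 12.8 to 36.2 FPKM in vehicle mice and 18.5 to 27.6 FPKM in treated mice. Vehicle ZT12 replicate 1, lowest of its group in Hpx, Itih4, Itih3 and Apcs, had the highest Kupffer sum, and replicate 3, highest in these genes, had the lowest. Libramed ZT12 ran the other way. There replicate 2 was highest and replicate 3 lowest both in these genes and in the Kupffer sum (27.6 and 18.5 FPKM). In Libramed ZT0 replicate 1, lowest in these genes, had the highest sum (26.6 FPKM), but replicate 2, highest in them, did not have the lowest. Among fat markers Lep was at 0 in every library, and Adipoq and Plin1 reached at most 0.049 and 0.038 FPKM. Cfd, the complement factor adipsin, was lower with Libramed at both times by the unadjusted threshold (−1.49 and −1.65). The 2 neutrophil markers tested were higher with Libramed at ZT0 and ZT12, without a call (S100a8 0.98 and 0.86, S100a9 0.64 and 1.09). Over both times S100a8 passed the unadjusted threshold (0.92). Their highest values were 6.3 and 11.1 FPKM. At ZT12 the bile duct markers summed to 25.5 to 37.4 FPKM with Libramed and 40.6 to 43.2 FPKM with vehicle, with no overlap, and Krt19 (−0.59) and Spp1 (−0.41) were lower by the unadjusted threshold. Spp1 held most of the bile duct sum, with ZT12 means of 28.41 FPKM with Libramed and 37.55 FPKM with vehicle, and Krt7 was not called (−0.23). The bile duct sums at ZT0 overlapped (27.1 to 43.4 against 39.2 to 50.2 FPKM). Of the 3 markers tested, 1 was higher (Krt19, 0.44) and 2 were lower at ZT0, with no call. Of the 5 stellate cell markers tested, 5 were higher with Libramed at ZT0 (median 0.28), but 2 were higher and 3 lower at ZT12 (median −0.01). Des was the one called, at both times (0.39 and 0.36). Of the 4 endothelial markers tested, 3 were higher and 1 lower at ZT0 (median 0.17), and 4 were higher at ZT12 (median 0.17). Kdr was the one called, at ZT0 (0.38). Both summed lists overlapped between treatments at each time. The hepatocyte markers summed to 30570 to 37890 FPKM in Libramed ZT0 and 27570 to 29580 FPKM in vehicle ZT0, with no overlap, and to 27760 to 33590 and 24900 to 28270 FPKM at ZT12. Apoa1 alone held most of this sum, with means of 29390 FPKM in Libramed ZT0 and 22770 FPKM in vehicle ZT0. The 7 markers did not move as a set at ZT0, where 3 were higher and 4 lower (median −0.005). By the unadjusted threshold Apoa1 was higher (0.36) and Fgb lower (−0.33) there. The part of these cell types in the differences of the members was not tested.

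The negative acute-phase genes ran the other way in their means. Transthyretin transports thyroxine and, bound to Rbp4, keeps retinol in the circulation, and Ahsg encodes fetuin-A, which binds calcium phosphate and the insulin receptor. Their limma log2 fold changes at ZT0 were 0.20 for Ttr (SE 0.153), 0.25 for Rbp4 (SE 0.139) and 0.23 for Ahsg (SE 0.125), with adjusted p of 0.73, 0.638 and 0.635. Without vehicle ZT0 replicate 2 the value for Ttr was 0.07, and without Libramed ZT0 replicate 1 that for Rbp4 was 0.15. At ZT12 they were 0.19 for Ttr, 0.07 for Rbp4 and 0.15 for Ahsg, with adjusted p of at least 0.754 in limma.

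Ahsg (chromosome 16, plus strand, 22891277 to 22899449, 7 exons) was at 5699, 6382 and 6563 FPKM in vehicle ZT0 and at 7017, 6883 and 8039 FPKM in Libramed ZT0. These groups did not overlap, and the means were 6215 ± 456 and 7313 ± 632 FPKM (SD, n = 3). At ZT12 they did overlap, with 6034, 5568 and 6145 FPKM against 7174, 5889 and 6644 FPKM. Over both times Ahsg was higher with Libramed by 0.19 on the log2 scale (SE 0.0745, adjusted p = 0.424 in limma, exact permutation p = 0.015), in 5 of 6 treated mice against the vehicle mean of their time. The unadjusted call was lost when any of 5 mice was left out (vehicle ZT0 replicate 1, Libramed ZT0 replicate 3, vehicle ZT12 replicate 2, Libramed ZT12 replicate 1 or Libramed ZT12 replicate 3), with no minimum FPKM and after quantile normalization. An antisense gene, Gm30505, overlaps Ahsg, so the uncertainty given for Cp applies here as well.

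Rbp4 (chromosome 19, minus strand, 38116629 to 38125281, 6 exons) stood at 5822, 5474 and 5652 FPKM in vehicle ZT0 and at 7779, 5790 and 6740 FPKM in Libramed ZT0. At ZT12 it was at 6486, 6539 and 6884 FPKM with vehicle and at 7337, 6590 and 7018 FPKM with Libramed. The vehicle ZT0 mice were the lowest of the 12 apart from 1 Libramed ZT0 mouse, which lay just within their range. Over both times the treatment value for Rbp4 was 0.16 (SE 0.0756, adjusted p = 0.487 in limma, exact permutation p = 0.025).

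Ttr (chromosome 18, plus strand, 20665280 to 20674321, 4 exons) ranged from 6123 to 8197 FPKM in vehicle ZT0, from 7875 to 9230 FPKM in Libramed ZT0, from 6611 to 7700 FPKM in vehicle ZT12 and from 7407 to 8909 FPKM in Libramed ZT12. Vehicle and Libramed overlapped at both times. The value over both times was 0.20 (SE 0.0911, adjusted p = 0.485 in limma, exact permutation p = 0.05), with 6 of 6 treated mice above the vehicle mean of their time. The ratio of Rbp4 to Ttr FPKM, whose products travel as a complex, lay between 0.71 and 0.989 in the 12 mice, and all groups overlapped each other in it. The pairs among Ttr, Rbp4 and Ahsg correlated with r of 0.306 to 0.62 over the 12 mice, and their pairs with Hpx, Apcs, Itih3 and Itih4 with r of −0.7 to −0.396, falling to −0.501 to −0.0977 once group means were removed.

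Gc and Fetub had no treatment difference past the unadjusted threshold in limma. The Gc product carries vitamin D metabolites and scavenges actin, and its gene (chromosome 5, minus strand, 89417522 to 89457898, 13 exons) was the steadiest member. Gc ranged from 3959 to 4626 FPKM in vehicle ZT0, from 3778 to 4264 FPKM in Libramed ZT0, from 4669 to 4811 FPKM in vehicle ZT12 and from 4209 to 4729 FPKM in Libramed ZT12. Its limma log2 fold change with Libramed was −0.11 at each time (SE 0.117 and 0.0874), and after quantile normalization it was 0.02 at ZT0 and 0.0040 at ZT12. Over both times the value for Gc was −0.11 (SE 0.0636, adjusted p = 0.577 in limma, exact permutation p = 0.04). There 6 of 6 treated mice were below the vehicle mean of their time, but after quantile normalization the value was 0.011.

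Between ZT0 and ZT12 a single member passed the unadjusted threshold in each arm, Rbp4 with vehicle and Fetub with Libramed. With vehicle, 1 of the 10 members had an unadjusted p under 0.05, in the higher direction, while 27.4% of all genes tested did, 14.4% in the higher direction. After adjustment in limma the counts were 0 members and 10.4% of all genes. With Libramed 1 of the 10 had an unadjusted p under 0.05, again higher, against 29.2% of all genes and 15.7% in the higher direction, and the same member passed adjustment, against 12.4% of all genes. Groups did not overlap for 3 members with vehicle (Rbp4, Gc and Fetub) and 1 with Libramed (Fetub), where the shares over all genes were 33.2% and 34.9%. The comparisons of time and of treatment share mice, so they are not independent of each other.

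Fetub was the member that passed adjustment. It encodes fetuin-B, a protease inhibitor of the fetuin family that protects the egg coat before fertilization, and it lies on chromosome 16 (plus strand, 22918334 to 22939778, 9 exons), 18884 bp after Ahsg. With Libramed, Fetub was at 427, 438 and 493 FPKM at ZT0 and at 651, 584 and 573 FPKM at ZT12. With vehicle it was at 506, 528 and 464 FPKM at ZT0 and at 551, 556 and 580 FPKM at ZT12. The ZT12 mice were above the ZT0 mice in both arms.

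With Libramed the mean of Fetub rose from 453 ± 35.5 to 603 ± 42.3 FPKM (SD, n = 3, log2 fold change 0.41, SE 0.0962, adjusted p = 0.036 in limma), and with vehicle it went from 499 ± 32.5 to 562 ± 15.7 FPKM (0.17, SE 0.0871, adjusted p = 0.254). The difference between these changes, tested as an interaction, was 0.24 (SE 0.123, adjusted p = 0.764 in limma), so a difference between the arms was not shown. The rise with Libramed kept an unadjusted p under 0.05 in the 14 alternatives, but the adjusted limma p was 0.0725 with no minimum FPKM, 0.09 after quantile normalization, 0.0831 with the replicate number as a block, and 0.0507 to 0.109 without any 1 of the 6 mice. No member had a p under 0.05 for the interaction, where 6.63% of all genes did (650), and none of the genes tested passed adjustment in limma (0%).

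The ratio of Fetub to Ahsg FPKM within a mouse set the Libramed ZT0 group apart. It was 0.0608, 0.0637 and 0.0614 in these mice and 0.0888, 0.0828 and 0.0707 in vehicle ZT0. At ZT12 it was 0.0913, 0.0998 and 0.0944 with vehicle and 0.0907, 0.0992 and 0.0862 with Libramed. The 3 Libramed ZT0 mice were the lowest of the 12, and the ZT12 groups overlapped each other. The ratio of Itih3 to Itih4 ran from 0.392 in a vehicle ZT12 mouse to 0.672 in a Libramed ZT0 mouse, and all groups overlapped each other in it.

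**Figure D4:**
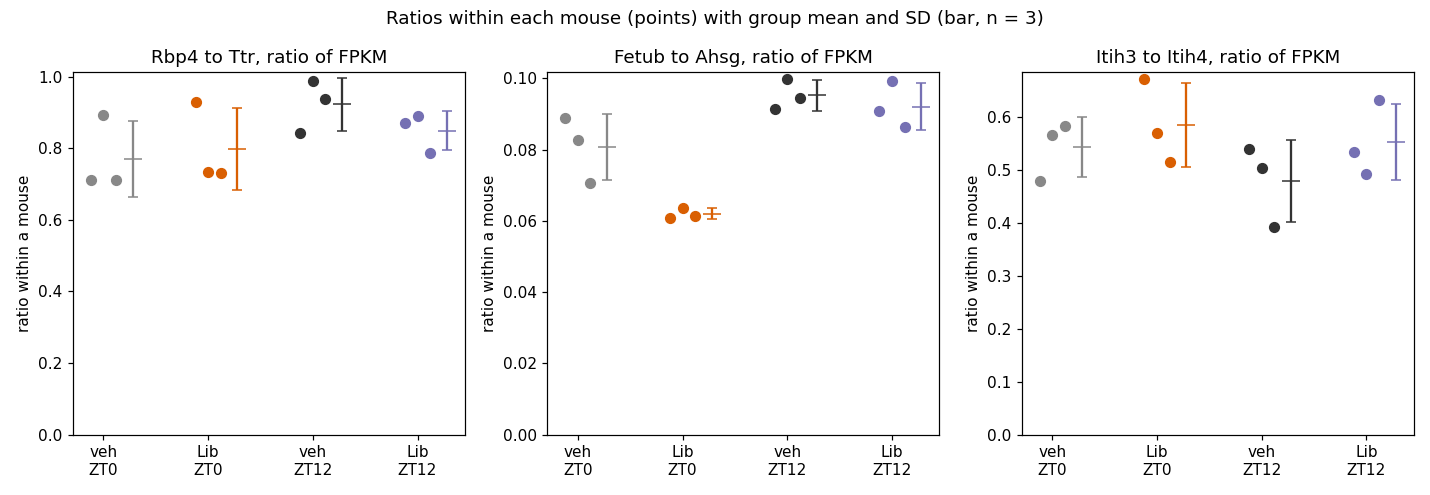
Ratios of FPKM within each mouse (vertical axes, from 0) for Rbp4 to Ttr, Fetub to Ahsg and Itih3 to Itih4 in the 4 groups (veh, vehicle; Lib, Libramed), with points for mice and the group mean and SD (n = 3). Fetub to Ahsg is 0.0608 to 0.0637 in Libramed ZT0 and at least 0.0707 in every other mouse.

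Rbp4 was the member with an unadjusted p under 0.05 in the time comparison with vehicle. Its mean went from 5649 ± 174 to 6636 ± 216 FPKM with no overlap (log2 fold change 0.23, SE 0.0978, adjusted p = 0.182 in limma). Its unadjusted p lay at the threshold, and the call was lost under 7 of the 8 other settings and without any 1 of 5 of the 6 mice (vehicle ZT0 replicates 2 and 3 and the 3 vehicle ZT12 mice). With Libramed the value for Rbp4 was 0.05 (SE 0.132). The value of Gc was 0.15 in both arms, with adjusted p of 0.397 and 0.366 in limma. The positive genes ranged from −0.28 to 0.02 over time with vehicle and from −0.40 to 0.35 with Libramed, with no unadjusted p under 0.05. Markers of other cells moved with time: of the endothelial markers, 4 of 4 tested were lower at ZT12 in both arms by the unadjusted threshold, and their sum was 23.3 to 32.8 FPKM at ZT0 against 12.2 to 20.7 FPKM at ZT12 in vehicle mice and 30.1 to 38.2 FPKM against 19.2 to 20.3 FPKM in treated mice. Of the stellate cell markers, 5 of 5 tested were lower at ZT12 with Libramed and 1 of 5 with vehicle. Their part in the values of Fetub and Rbp4 was not tested.

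Partners of the members were looked at beside all genes tested. Among all genes, 9.23% had an unadjusted p under 0.05 for treatment at ZT0, 6.74% at ZT12 and 10.5% over both times in limma. The lists of partners are short, and their counts were not tested against these shares. In the inter-alpha-trypsin inhibitor group, Itih1, Itih2 and Ambp, which encodes the light chain bikunin, were measurable, and Itih5 and Tnfaip6, whose product transfers heavy chains to hyaluronan, had means under 1 FPKM. None of the 3 was called for treatment at ZT0 (median −0.03), at ZT12 (0.01) or over both times (−0.02). Itih3 and Itih4 of the same family were called at ZT0 and over both times and, like these 3, were not called at ZT12, and the difference between the 2 sets was not tested. Itih1, 5419 bp from Itih3, was at 289 ± 16.1 FPKM in vehicle ZT0 and 283 ± 22.3 FPKM in Libramed ZT0 (SD, n = 3, log2 fold change −0.03, SE 0.102). It was lower at ZT12 than at ZT0 with Libramed by the unadjusted threshold of limma, with a log2 fold change of −0.22 (adjusted p = 0.167).

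Of 12 other plasma carriers 10 were tested. Beside the calls of this list and the next stand the shares of all genes. They were 9.23% for treatment at ZT0, 6.74% at ZT12 and 10.5% over both times. For time they were 27.4% with vehicle and 29.2% with Libramed, and for the interaction 6.63%. For treatment the calls at an unadjusted p under 0.05 were Apoa1, the main HDL protein, at ZT0 (log2 fold change 0.36) and over both times (0.29), and Hp, which encodes the hemoglobin binder haptoglobin, over both times (−0.37, adjusted p = 0.464 in limma). Over time the calls were Serpina6, the corticosteroid carrier, with 1.57 (vehicle) and 1.31 (Libramed), and Hrg, histidine-rich glycoprotein, with 0.55 and 0.44, and both passed adjustment in both arms. Hrg lies 11293 bp after Fetub on the same strand. By the same threshold, among 9 tested genes that handle retinol, copper, heme or vitamin D, Hmox1, the heme oxygenase, was lower with Libramed at ZT0 (−0.64, adjusted p = 0.456 in limma) and lower at ZT12 than at ZT0 with vehicle (−0.80, adjusted p = 0.0141). At ZT12 Hmox1 was higher with Libramed without a call (0.25), and its interaction passed the unadjusted threshold (0.89, adjusted p = 0.519 in limma). Atp7b, which loads copper onto ceruloplasmin, was lower with Libramed at ZT12, where Cp was lower (−0.30, adjusted p = 0.729 in limma). With vehicle Atp7b was higher at ZT12 than at ZT0 (0.34, adjusted p = 0.145 in limma). Over time with Libramed the calls were Lrat (−0.35) and Rxra (0.30). The other treatment calls of this list were those of Cyp27a1, which can hydroxylate vitamin D, at ZT12 (0.35) and over both times (0.26).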

How the data were processed

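RNA-seq was made from liver RNA of 12 mice with a stranded poly(A) TruSeq protocol. The authors aligned reads to mm10, kept unique matches and deposited 1 table of FPKM per gene and sample (the paper names RPKM and ELAND, and the submitters' processing notes name TopHat and Cuffnorm), with no counts or read totals. Groups and replicate numbers were taken from the labels. The table had 24138 lines. Where a symbol came up again (289 lines), only its most highly expressed line was used. Analyses used log2(FPKM + 1) of the 9806 symbols with a mean of at least 1 FPKM, and a fold change on this scale understates that of low genes. Comparisons were fitted in limma 3.58.1 (R 4.3.3; lmFit, eBayes with trend), two-sided, with Benjamini-Hochberg adjustment over all genes tested. Each pairwise comparison used its 6 mice, and the interaction and the treatment over both times used all 12. Calls are given at p under 0.05, the threshold of the paper, and at adjusted p under 0.05. The script was tested on simulated data. Exact permutation tests used all 20 arrangements, or 400 within times. Named genes are the 10 members, genes of hand-written lists and, for each member, the 3 genes with the highest r. The members and lists were chosen with earlier results of these data known. Promoter windows came from RefSeq (GRCm38.p6), and gene positions from GENCODE vM21. Other settings tried were quantile normalization, median-ratio scaling, limma fitted with no trend, a pseudocount of 0.1, all genes kept whatever their FPKM, a replicate block, a fit over 12 samples, Cyber-T variances (window of 101 genes, prior weight 10) and leaving out each mouse.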

Additional observations from a re-analysis of the deposited data

How the results depend on the processing

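Of the treatment comparisons over the members, ZT0 gave 3 to 5 calls and ZT12 1 to 5 without 1 mouse, with 5 reached without vehicle ZT12 replicate 1, and both times together gave 2 to 7. The time comparison with vehicle went from 1 call (Rbp4) to 0 with a pseudocount of 0.1, median-ratio scaling, a replicate block, a fit over 12 samples or Cyber-T, and gave 0 to 1 without 1 mouse. A count of 1 was another gene with no minimum FPKM (Fetub, 0.17) and after quantile normalization (Ahsg, −0.25, against −0.07 without it). The time comparison with Libramed gave 2 calls after quantile normalization (Fetub and Cp) and 1 to 2 without 1 mouse, and the interaction 0 to 1. After quantile normalization these log2 values turned sign: at ZT0 Cp 0.0186 and Gc 0.0179, at ZT12 Gc 0.0040, over both times Gc 0.011, over time with vehicle Hpx −0.0925, Cp −0.032, Itih4 −0.12 and Gc −0.0142, over time with Libramed Itih3 −0.0321, Itih4 −0.0088 and Gc −0.0281, and in the interaction Gc −0.0139. Median-ratio scaling turned Hpx over time with vehicle (−0.0031) and Gc in the interaction (−0.0115), and shifted libraries by −0.05 to 0.03. Without 1 mouse, the values that turned sign ranged from −0.114 to 0.0949 for Cp at ZT0, with vehicle over time from −0.19 to 0.26 for Hpx, −0.0258 to 0.0393 for Cp, −0.71 to 0.23 for Apcs, −0.33 to 0.0604 for Itih3, −0.28 to 0.34 for Itih4 and −0.16 to 0.0457 for Ttr, with Libramed over time from −0.10 to 0.032 for Ttr and −0.0539 to 0.159 for Rbp4, and in the interaction from −0.63 to 0.31 for Apcs, −0.14 to 0.49 for Itih4, −0.0891 to 0.121 for Ttr and −0.0563 to 0.0562 for Gc. Their cause was not tested. Replicate numbers did not pair the mice: the deviations of same-numbered mice correlated at −0.279 to 0.341, with 4 of 18 pairs over 0.1. With the replicate block the calls were 3 at ZT0, 1 at ZT12, 0 and 1 over time, 0 for the interaction and 7 over both times. Of the remaining values of single members, 808 kept their direction and side of the threshold, 31 passed it and 34 lost it. The absence of counts leaves the counting error unknown, and an exact test of 3 mice against 3 cannot go below 0.1 (0.005 within both times).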
